A study of Mus musculus with 4 samples.

Results

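The heat shock and DnaJ chaperone genes of the mouse were described here by the RNA polymerase II (Pol II) found on them in 4 organs. They were chosen by symbol alone: every protein-coding gene whose symbol is Hspa, Hspb, Hspd, Hspe, Hsph or Hsp90 with any suffix, or Dnaja, Dnajb or Dnajc with a number, together with Hsf1, Hsf2 and Bag3. The rule found 77 of 21887 protein-coding genes (those of the 19 autosomes, X and Y), and used no measured value. By role they comprise 14 HSP70 and HSP110 genes, 3 HSP90 genes, 2 chaperonin genes, 10 small heat shock protein genes or genes that share the Hspb prefix, 4 DnaJ class A, 13 class B and 28 class C genes, and 3 regulators. Hspbp1, Hspbap1 and Hspb11 carry the prefix but are not small heat shock proteins.

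HSP70 proteins bind exposed hydrophobic stretches of other proteins and release them in cycles of ATP hydrolysis. DnaJ proteins bring them their clients and start the hydrolysis, while HSP110 proteins and other exchange factors reset the cycle. HSP90 acts later on partly folded clients such as kinases and steroid receptors, the chaperonins enclose proteins in a barrel, and small heat shock proteins hold unfolding proteins in oligomers, with a well-known place in muscle. The transcription factor HSF1 induces many of these genes on heat or proteotoxic stress by binding repeats of the unit nGAAn, and stress of the endoplasmic reticulum (ER) induces others through the unfolded protein response.

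The Pol II profiles (chromatin immunoprecipitation followed by sequencing) came from 4 organs, heart, kidney, liver and lung, of mice of the inbred strain C57BL/6, with no treatment stated in the labels. The organs of 2 mice were flash frozen, crosslinked, sheared side by side in 96-well format with the PIXUL sonicator and precipitated with antibody 4H8, raised against the C-terminal repeat domain (CTD) of Pol II. Each organ is represented by 1 list of called regions, so n = 1, replicate error is unknown for every value, and organs were compared without a test. The sources used here do not say whether a list pools both mice, nor their age and sex.

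The lists rest on 9880184 tags (aligned reads counted by the caller) in heart and 16589890.5 in kidney, 20058183 in liver and 13296938 in lung. Called regions held 46.3%, 44.1%, 55.1% and 32.1% of these tags and covered 163, 200, 210 and 161 Mb, in the same order. All 5 marker genes of each organ's own main cell type were covered in its list, and at most 1 of the 5 in any other list. Markers of other cells differed between lists too: the endothelial marker Pecam1 was covered over 95.7% of its span in heart and lung, 22.3% in kidney and 37.3% in liver, and 2 of 3 leukocyte markers were covered in lung and 0 in the other lists. In whole organs, more cells with Pol II on a gene and more Pol II per cell cannot be told apart.

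The measures are these. The covered percent is the share of a gene's annotated span, introns included, that lies inside called regions, and a gene is called covered at 50% or more. A region near an end is one that overlaps the 1 kb either side of the first or last base of the span by at least 1 bp. Tags per kb are the tags of overlapping regions, scaled by the authors to 10000000 per list, shared out by overlapped length and divided by the length of the gene span. Genes lying in 1 long region therefore share a density, and tags outside called regions are not counted. Ranges in brackets after tags per kb are exact 95% Poisson intervals, which cover counting error only. Where no region lies over a gene, it was not called, and polymerase below the calling threshold may still be there.

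The known stress response motifs stand in the promoters of some of these genes. A RefSeq promoter of 300 bases (250 before the start and 50 after, GRCm38.p6, the assembly behind mm10) was found for 62 of the 77 genes. A pair of inverted heat shock units (GAANNTTC or TTCNNGAA, either strand) stood in 17 of the 62 promoters (27.4%), against 15.7% of 17492 genes and 13.7% of 21263 promoters. These were the promoters of Bag3, Dnaja1, Dnaja4, Dnajb4, Dnajb6, Dnajc10, Dnajc27, Dnajc5g, Hspa1a, Hspa1b, Hspb1, Hspb3, Hspb6, Hspb8, Hspd1, Hspe1 and Hsph1. A run of 3 such units (the pair extended by a further inverted unit after any 2 bases), which always contains the shorter motifs, stood in those of Dnajb6, Hspd1, Hspe1 and Hsph1 (4 of 62, 6.45%), against 0.595% of genes and 0.517% of promoters. The ER stress element (CCAAT and CCACG with any 9 bases between them, either strand) stood in the promoters of Hspa5, Hsp90b1 and Dnajc3 (3 of 62, 4.84%), against 0.166% of genes and 0.141% of promoters. TATAAA stood in 4 of the 62 (6.45%: Dnajc19, Dnajc24, Hspb3 and Hspb6), against 14.8% of genes and 12.6% of promoters. A match describes letters in this window and does not show binding.

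The following stretches, each 5′ to 3′ on the gene's own strand, hold heat shock units, and capitals mark the matched letters. They are shown because their genes range from Hspe1, covered in all 4 lists, to Dnajb6, covered in none. Hspa1a was also covered in none, but its low coverage is uncertain, as given below. Hspe1 is at chr1:55088034-55088101 (plus strand), Dnajb6 at chr5:29735827-29735889 (plus), Hspb1 at chr5:135887782-135887849 (plus), Hspb6 at chr7:30553156-30553213 (plus), Dnaja4 at chr9:54699449-54699534 (plus) and Hspa1a at chr17:34972228-34972285 (minus). The stretches of Hspb6 and Dnaja4 precede the second of 2 starts in the promoter table, which lies inside the annotated span, so they are themselves within the span. The capitals of Hspe1 join 2 overlapping matches to the longer motif.
Hspe1: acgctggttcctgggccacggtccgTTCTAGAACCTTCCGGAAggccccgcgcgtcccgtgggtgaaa
Dnajb6: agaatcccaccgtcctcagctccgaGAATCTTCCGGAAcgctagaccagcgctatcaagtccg
Hspb1: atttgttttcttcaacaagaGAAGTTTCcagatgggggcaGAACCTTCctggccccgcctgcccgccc
Hspb6: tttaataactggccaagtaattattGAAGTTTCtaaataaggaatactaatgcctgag
Dnaja4: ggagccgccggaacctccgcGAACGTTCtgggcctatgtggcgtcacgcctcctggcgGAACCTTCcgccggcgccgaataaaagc
Hspa1a: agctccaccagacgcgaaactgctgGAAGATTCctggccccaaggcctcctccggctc
The corresponding stretches with the ER stress element precede 3 genes of the ER and are taken up again with the liver results. They lie at chr2:34772000-34772068 (plus strand) before Hspa5, chr10:86705518-86705671 (minus) before Hsp90b1, which holds 2 matches in opposite orientation, and chr14:118937802-118937870 (plus) before Dnajc3.
Hspa5: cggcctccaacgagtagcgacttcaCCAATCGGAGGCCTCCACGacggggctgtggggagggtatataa
Hsp90b1: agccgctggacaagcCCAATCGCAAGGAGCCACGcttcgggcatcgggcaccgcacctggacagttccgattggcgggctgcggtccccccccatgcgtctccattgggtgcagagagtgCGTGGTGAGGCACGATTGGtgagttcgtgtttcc
Dnajc3: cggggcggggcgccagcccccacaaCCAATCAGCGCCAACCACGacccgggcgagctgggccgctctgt

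Pol II regions covered the chaperone genes more often than protein-coding genes at large in each of the 4 lists. In heart 35 of the 77 genes were covered, beside 16.1% of all protein-coding genes, and in kidney 34 of 77, beside 21.1%. Liver had 36 of 77 covered, beside 21.9%, and lung 27 of 77, beside 15.1%. The median gene of the group carried 8.56 tags per kb in heart and 9.33 in kidney, 8.92 in liver and 5.07 in lung, where the median of all genes was 0.481, 0.907, 0.452 and 0.685. The median span was 18.2 kb (from 0.647 to 188 kb) for the chaperone genes and 17.2 kb for all genes. Of the 28 genes with spans under 10 kb, 19 were covered in heart and 18 in kidney, 17 in liver and 15 in lung, beside 23.9%, 29.4%, 27.4% and 23.7% of all genes of that length. Of the 49 longer ones, 16, 16, 19 and 12 were covered, beside 11.6%, 16.5%, 18.8% and 10.2%. Among the 37 with no other protein-coding gene within 2 kb, the counts were 15, 14, 15 and 12, beside 9.52%, 13.3%, 14.6% and 8.88% of 13743 such genes.

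**Figure D1:**
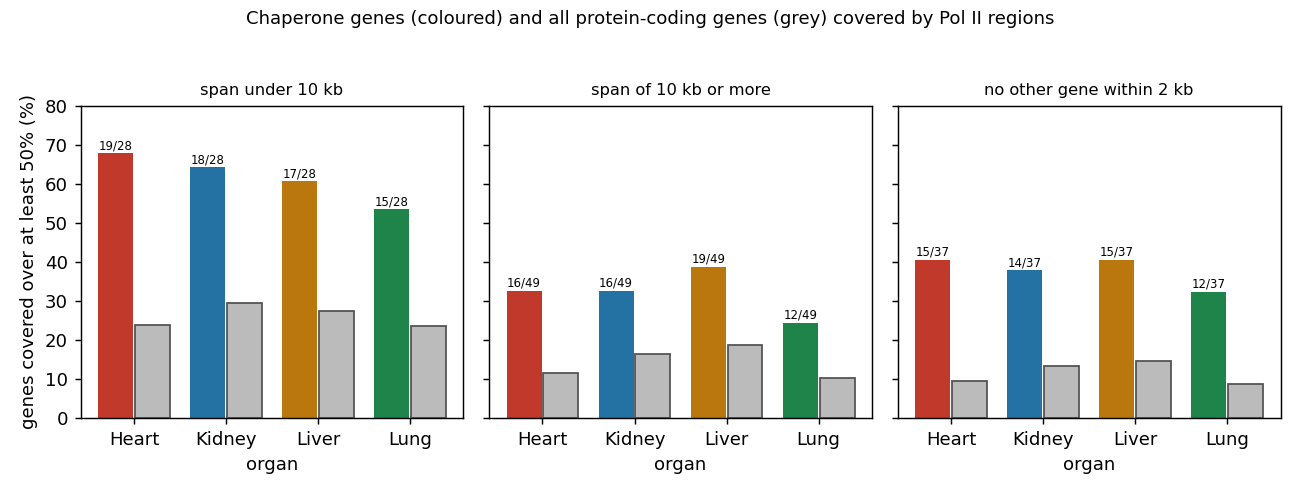
Percent of genes covered over at least 50% of the span in each organ's list (1 list per organ, no error bars), for chaperone genes (coloured, counts above the bars) and all protein-coding genes of the same class (grey), by span length and for genes with no other gene within 2 kb. The coloured bar is above the grey one in all 12 pairs, for example 19 of 28 short chaperone genes in heart beside 23.9%.

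The number of lists in which a gene was covered ranged from 0 to 4. In all 4 lists 19 of 77 were covered, beside 8.04% of all genes, and in no list 27, beside 66.9%. Another 14 were covered in 1 list, 9 in 2 and 8 in 3, beside 13%, 7.2% and 4.91%. A region near an end was called for 62 genes in heart and 69 in kidney, 66 in liver and 66 in lung, beside 51.4%, 56.8%, 53.3% and 54.7%. It was called in all 4 lists for 51, beside 39.7%, and in no list for 1, beside 32.1%. That gene was Dnajb8, a testis-enriched DnaJ gene, whose covered percent was 0 in every list. Many genes with low coverage of the body thus still had a region at an end.

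A gene is said to lead in an organ when it was covered there and had at least 2 times the tags per kb of each other list. Heart was led by 6 of the 77 genes, beside 2.67% of all genes: Bag3, Dnaja4, Dnajb5, Hspa12b, Hspb3 and Hspb7. In kidney 3 genes led, Dnajc12, Dnajc13 and Hsph1, beside 2.68%. Liver was led by 8, beside 5.92%: Dnaja3, Dnajb9, Dnajb11, Dnajc3, Dnajc16, Dnajc25, Hsf2 and Hsp90b1. Lung was led by 1, Dnajb13, beside 0.854%. The kidney and lung counts are near the background.

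**Figure D2:**
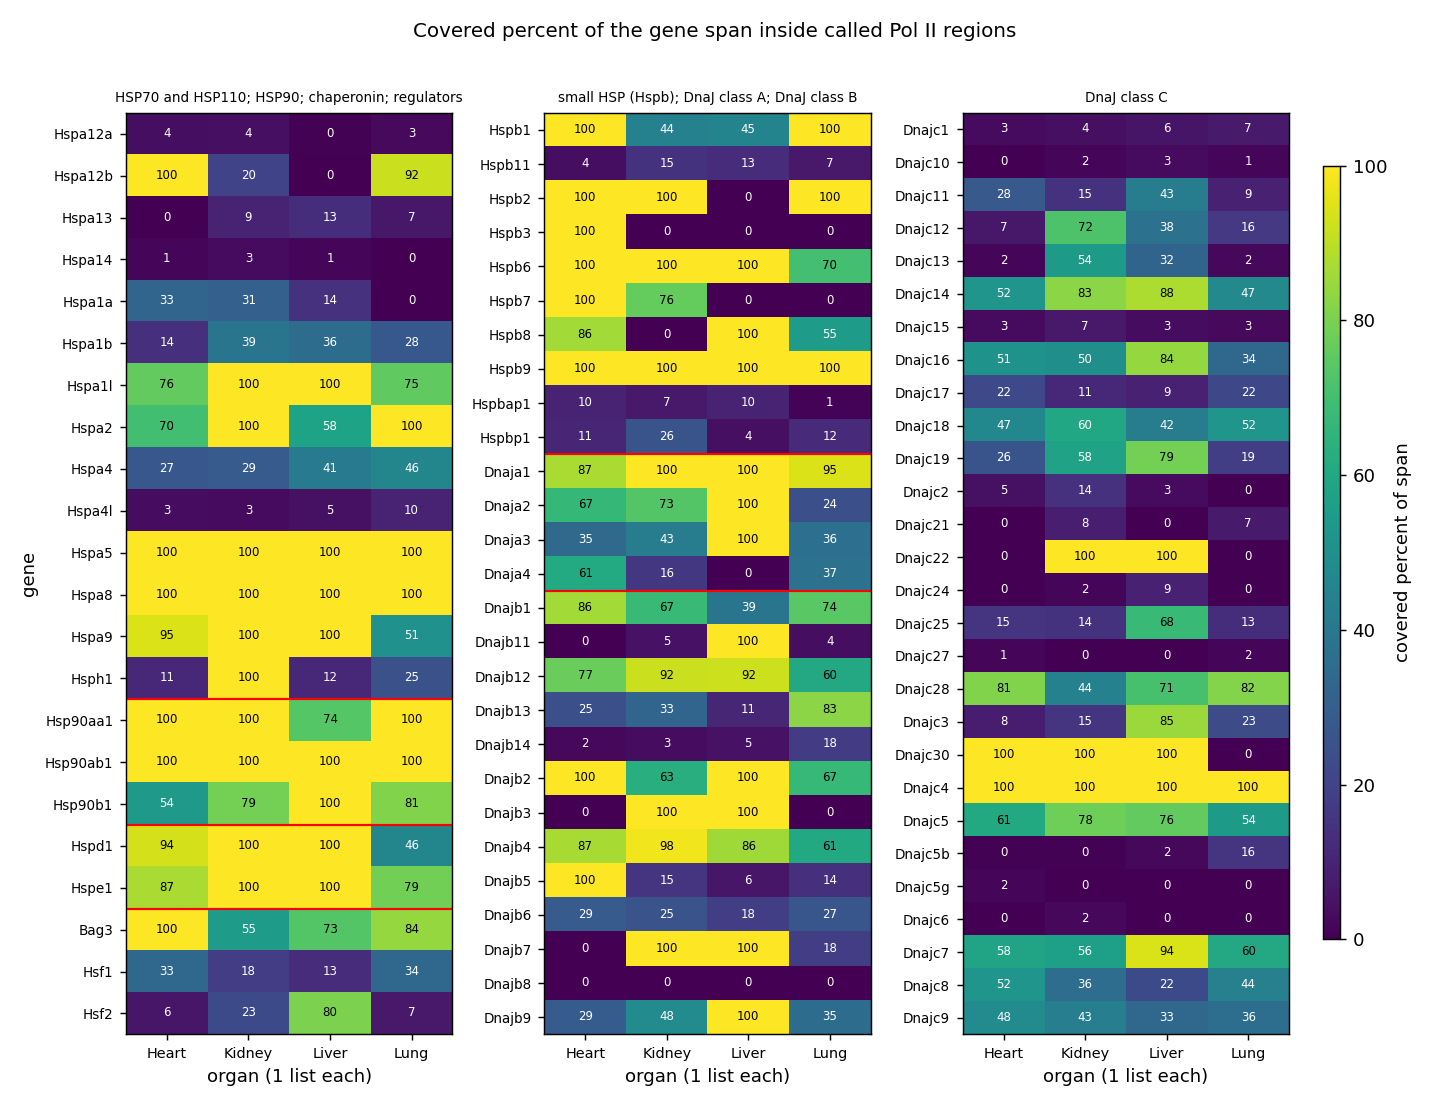
Covered percent of the span of each of the 77 genes (rows, ordered by role, red lines between roles) in the lists of heart, kidney, liver and lung (columns), with the rounded percent printed in each cell. Yellow rows such as Hspa8 and Hsp90ab1 are at 100 in all 4 lists, while Hspb3 is at 100 in heart and 0 elsewhere.

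Among the HSP70 and HSP110 genes, Hspa8 carried the most Pol II. It encodes HSC70, the constitutive HSP70 of the cytosol, and lies at chr9:40801276-40805202. Its whole span lay inside a region in all 4 lists, with 73.6 tags per kb in heart (65.3 to 82.6), 51.3 in kidney (45.9 to 57.1), 54.8 in liver (49.7 to 60.2) and 33.6 in lung (28.8 to 39.0). Heart was highest and lung lowest, and these placed Hspa8 at rank 13, 7, 159 and 67 among all protein-coding genes. Its region, of 15.2, 13.5, 12.6 and 15.9 kb in these lists, ran well past both ends and met no other protein-coding gene.

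Hspa5 and Hspa9, the HSP70 proteins of the ER (BiP) and of mitochondria (mortalin), were also occupied in every organ. Hspa5 was covered over 100% of its span in each list and had 41.6 tags per kb in heart (35.8 to 48.1), 27.7 in kidney (24.0 to 31.8), 43.1 in liver (38.9 to 47.6) and 25.8 in lung (21.9 to 30.3). Heart and liver had overlapping intervals above those of kidney and lung, which overlapped each other. Its region also met Rabepk in all 4 lists and was longest in liver (21.1 kb). Hspa9 was covered over 94.7% in heart, 100% in kidney and liver and 50.7% in lung, with 32.1, 31.0, 32.3 and 12 tags per kb, so that lung stood below the other 3 lists.

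The testis-associated members Hspa1l and Hspa2 were covered in all 4 lists as well. Hspa1l was covered over 76.1% in heart, 100% in kidney and liver and 75.5% in lung, with 23.9, 31.7, 47.1 and 15.4 tags per kb. Hspa2 was covered over 69.8% in heart and 100% in kidney, 58.1% in liver and 100% in lung. Its regions measured 4.4, 6.61, 2.27 and 7.47 kb and met no other protein-coding gene. Hspa1l, by contrast, begins beside Hspa1a. Its longest overlap was with regions that also met Hspa1a in heart, both Hspa1a and Lsm2 in kidney and liver, and Lsm2 in lung. Tags within such a shared region cannot be assigned to 1 gene.

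Hspa12b and Hsph1 differed most between organs in this family. Hspa12b, an atypical HSP70 gene known for expression in endothelium, was covered over 100% in heart and 20.3% in kidney, 0% in liver and 92.1% in lung. It had 47.0 tags per kb in heart (43.9 to 50.2), 3.24 in kidney, none in liver and 18.7 in lung (17.1 to 20.5), the heart value being 2.51 times that of lung. Heart and lung were also the lists in which Pecam1 was covered over 95.7%, with 1 of 3 endothelial markers covered in each and 0 in kidney and liver. The part of endothelial content in the Hspa12b values was not tested.

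Hsph1, the HSP110 exchange factor with 3 heat shock units in its promoter, was covered over 11.3% in heart and 100% in kidney, 11.6% in liver and 24.9% in lung. Tags per kb were 2.75 (2.06 to 3.60), 23.5 (21.9 to 25.2), 2.13 (1.70 to 2.64) and 5.07 (4.24 to 6.01), so kidney had 4.64 times the lung value. All 4 lists had a region over the first 2 kb of the gene (60.9% of that window in heart and 100% in the other 3), and kidney alone had one over the middle and last 2 kb in full. In covered percent, the organs thus differed over the gene body and less at its start. The kidney region of 26.4 kb also reached the neighbouring Wdr95.

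The other HSP70 and HSP110 genes were not covered in any list. Hspa4, a further exchange factor, had 27.1% to 46.1% of its span covered, with the first 2 kb fully covered in all 4 lists. Hspa4l, Hspa12a, Hspa13 and Hspa14 had between 0% and 13.1%.

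Hspa1a and Hspa1b, the classical heat-inducible HSP70 genes, were likewise not covered in any list, and both have a pair of heat shock units in the promoter. Hspa1a had 32.5% of its span in regions in heart and 30.5% in kidney, 14.4% in liver and 0% in lung. For Hspa1b the values were 13.6%, 38.8%, 35.5% and 27.6%. The uncovered part was an internal stretch in most lists: regions reached just past the start of the gene and resumed before its end. The longest uncovered stretch of Hspa1a was 1888 bp in heart, 1944 bp in kidney and 2394 bp in liver, beginning 19, 78 and 137 bp after the start, and in lung it was the whole gene of 2798 bp. In Hspa1b it measured 2429 bp (heart), 1721 bp (kidney), 1812 bp (liver) and 2034 bp (lung), beginning 118 to 361 bp after the start. The copies are near identical: 296 of 300 promoter bases (98.7%) were the same, and the stretch below at chr17:34959310-34959367 (minus strand) is letter for letter that of Hspa1a.
Hspa1b: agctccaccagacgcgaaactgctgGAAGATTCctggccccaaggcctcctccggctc
The sources used here do not say how tags that match both copies were placed, so the low coverage of either gene is uncertain and was not read as low occupancy.

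All 3 HSP90 genes were covered in all 4 lists. Hsp90ab1, the constitutive cytosolic form, was covered over 100% of its span throughout and had 46.1 tags per kb in heart (40.6 to 52.2), 34.6 in kidney (30.9 to 38.7), 57.3 in liver (52.9 to 61.9) and 31.2 in lung (27.3 to 35.5). Liver was highest, and the kidney and lung intervals overlapped. Its regions also met Nfkbie, Slc35b2 or Slc29a1. Hsp90aa1, the inducible cytosolic form, had its lowest value in liver: it was covered over 100% in heart, kidney and lung and 73.7% in liver, with 31.2, 23.4, 24.9 and 15.1 tags per kb in that order. Hsp90b1 encodes GRP94, the HSP90 of the ER, and had liver at the top. It was covered over 53.7% in heart and 79.2% in kidney, 100% in liver and 81.1% in lung, with 14.0 (12.1 to 16.0), 17.0 (15.4 to 18.8), 40.6 (38.3 to 42.9) and 15.7 (14.0 to 17.5) tags per kb. The liver value was 2.38 times that of kidney, and the 3 other intervals overlapped.

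The chaperonin pair Hspd1 and Hspe1, which encode HSP60 and HSP10 of the mitochondrial matrix, lie head to head on chromosome 1 and shared much of their coverage. Hspd1 was covered over 93.7% in heart, 100% in kidney and liver and 45.9% in lung. It had 26.0 tags per kb in heart (23.0 to 29.3), 25.1 in kidney (22.8 to 27.6), 31.2 in liver (28.9 to 33.7) and 9.61 in lung (8.04 to 11.4). Lung was lowest, as for Hspa9. Hspe1 was covered over 87.4% in heart, 100% in kidney and liver and 78.6% in lung, with 26.7, 25.1, 31.2 and 13.7 tags per kb. A single region held both genes in kidney (18 kb) and in liver (19.1 kb), so these values are not independent.

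The small heat shock protein genes were covered more often in heart than in the other lists. Of 7 genes whose products have the alpha-crystallin fold, all 7 were covered in heart and 4 in kidney, 3 in liver and 5 in lung, beside 16.1%, 21.1%, 21.9% and 15.1% of all genes. Spans under 10 kb, which 6 of the 7 have, were covered in 23.9%, 29.4%, 27.4% and 23.7% of all genes of that length. This group of 7 was drawn up with the values known. In heart, Hspb2, Hspb6, Hspb7 and Hspb9 lay in regions that also met other genes. The median of the 7 was 38.9 tags per kb in heart and 15.3 in kidney, 8.19 in liver and 16.0 in lung. Cardiomyocyte markers were covered 5 of 5 in heart, 0 of 5 in kidney, 1 of 5 in liver (Pln) and 0 of 5 in lung, and their part in these values was not tested.

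Hspb7, the cardiovascular small heat shock protein gene, was covered over 100% in heart, 76.3% in kidney and 0% in liver and lung. It had 51.2 tags per kb in heart (44.8 to 58.3) and 15.3 in kidney (12.6 to 18.4), a ratio of 3.34, and no region over it in the other 2 lists. In both lists the region that met Hspb7 also overlapped other protein-coding genes. Hspb3, a small heat shock protein gene of muscle, was covered over 100% in heart with 25 tags per kb (15.1 to 38.9) and over 0% in the other 3 lists. Hspb3 is a gene of 781 bp, which its wide interval reflects.

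Hspb1, which encodes HSP27, was covered over 100% in heart and lung, 43.8% in kidney and 45.2% in liver. Its tags per kb were 42.6 in heart (33.2 to 53.9), 8.11 in kidney (5.09 to 12.3), 8.19 in liver (5.40 to 11.9) and 21.9 in lung (16.1 to 29.0). Heart and lung did not overlap each other or the other 2 lists, whose intervals overlapped. Hspb6, or HSP20, was covered over 100% in heart, kidney and liver and 70.0% in lung, with 42.9, 28.3, 31.9 and 16.0 tags per kb. Hspb2, a neighbour of the crystallin gene Cryab, was covered over 100% in heart, kidney and lung and 0% in liver, and Cryab over 100% in those 3 lists and 31.9% in liver. In each of those 3 lists a single region held both genes, so their values are not independent.

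Hspb8, the partner of BAG3 in the removal of damaged muscle proteins, was covered over 86.3% in heart and 0% in kidney, 100% in liver and 55.4% in lung. It had 22.5, 0, 29.5 and 10.8 tags per kb, so liver was highest and kidney had no region over the gene. Bag3 itself, the co-chaperone gene that HSF1 induces, was covered in all 4 lists, over 100% in heart and 55.3% in kidney, 73.1% in liver and 84.3% in lung. Its tags per kb were 57.9 in heart (54.8 to 61.0), 10.4 in kidney (9.39 to 11.4), 15.2 in liver (14.1 to 16.3) and 17.0 in lung (15.6 to 18.5). Heart stood at 3.4 times lung, and its region of 31.5 kb met no other protein-coding gene.

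Hspb9, a testis-enriched gene of 647 bp, was covered over 100% in all 4 lists, with 32.1, 32.6, 18.7 and 19 tags per kb in heart, kidney, liver and lung. It lay inside regions that also held Kat2a or Rab5c, so its coverage cannot be told apart from that of its neighbours. Hspb11, which encodes a subunit of the ciliary transport machinery, Hspbp1, an HSP70 exchange factor, and Hspbap1 were not covered in any list, with 0.924% to 26.1% of their spans in regions.

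**Figure D3:**
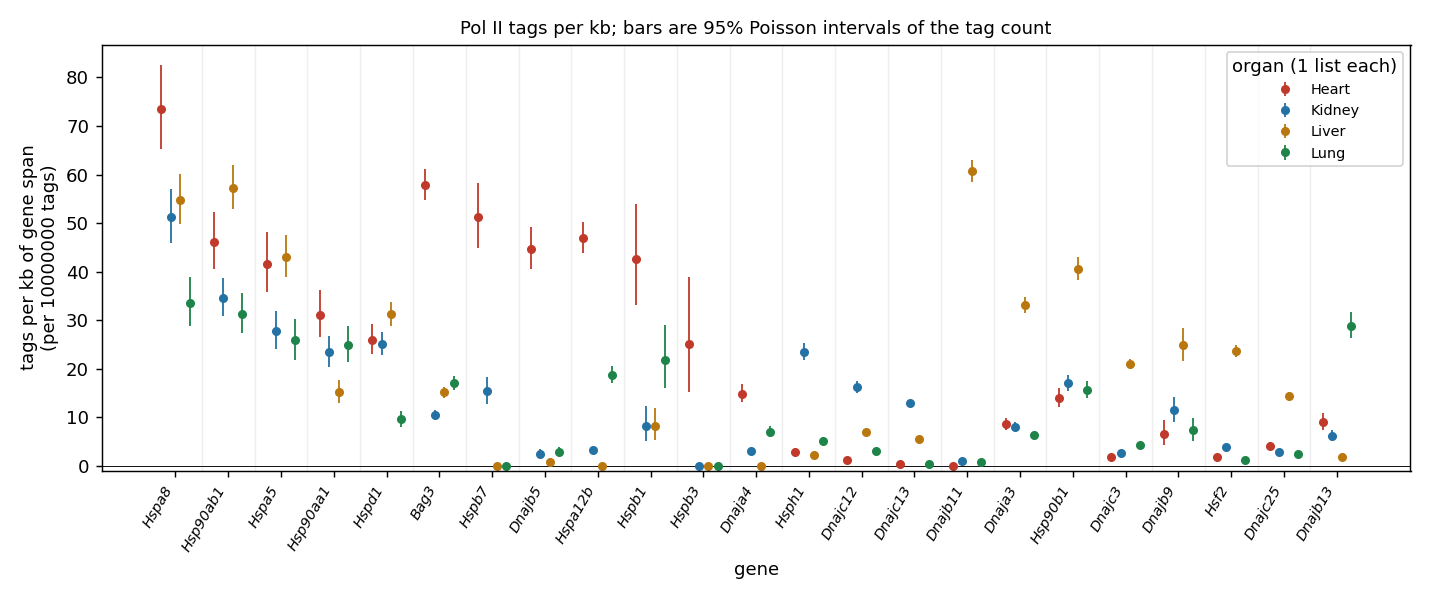
Tags per kb of gene span, scaled to 10000000 tags per list, for 23 chaperone genes (horizontal axis) in heart, kidney, liver and lung (1 list each), with bars for the exact 95% Poisson interval of the tag count. Heart stands above the other lists for Bag3, Hspb7, Dnajb5 and Hspa12b, and liver for Dnajb11, Dnaja3, Hsp90b1, Dnajc3 and Hsf2.

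Of the 4 class A DnaJ genes, the main partners of cytosolic and mitochondrial HSP70, Dnaja1 was covered over 87.4% in heart, 100% in kidney and liver and 94.8% in lung, with 26.3, 33.4, 39.4 and 24.6 tags per kb. Dnaja2 was covered over 66.6%, 73.3%, 100% and 24.4%, and its liver region of 103 kb also held Gpt2, an alanine aminotransferase gene. Dnaja3, the mitochondrial class A gene, was covered over 34.6% in heart and 42.5% in kidney, 100% in liver and 36.4% in lung. Its 33.1 tags per kb in liver (31.5 to 34.8) were 3.87 times the 8.56 in heart (7.41 to 9.83), and the liver region of 77.4 kb also held Coro7, Nmral1 and Hmox2. Dnaja4, whose promoter holds the 2 pairs of heat shock units shown above, had its highest value in heart: it was covered over 61.3%, 16.1%, 0% and 37.2%, with 14.9, 3.07, 0 and 6.94 tags per kb.

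Class B holds the stress-responsive HSP40 genes. Dnajb1, the HSP40 partner of HSP70, was covered over 86.2% in heart and 67.4% in kidney, 38.8% in liver and 74.3% in lung, with 27.5, 14.7, 8.46 and 16.3 tags per kb. Dnajb5, a DnaJ gene studied in cardiac hypertrophy, was the only gene of this class that led in heart under the 2-fold rule. It was covered over 100% in heart and 15.3% in kidney, 5.91% in liver and 13.9% in lung. Its tags per kb were 44.7 (40.5 to 49.2), 2.49 (1.78 to 3.4), 0.877 (0.509 to 1.41) and 2.87 (2.02 to 3.97), which puts heart at 15.6 times lung. The heart region of 12.8 kb met no other protein-coding gene and extended 0.786 kb before the start and 2.50 kb past the end.

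Dnajb2, Dnajb4 and Dnajb12, which act on misfolded proteins in the cytosol and at the ER membrane, were covered in all 4 lists. Dnajb2 was covered over 100% in heart and 62.9% in kidney, 100% in liver and 67.0% in lung, with 42.0, 13.8, 21.0 and 13.3 tags per kb. Its heart value was 1.9998 times that of liver, just under the 2-fold rule. Dnajb4 was covered over 87.0%, 98.0%, 85.7% and 60.7%, and Dnajb12 over 77.0%, 92.0%, 92.4% and 60.5%, with lung lowest in both. Dnajb6, a suppressor of polyglutamine aggregation with 3 heat shock units in its promoter, had 28.9%, 25.5%, 18.5% and 26.7% of its span in regions and so stayed under 50% in every list. Dnajb14 had 1.98% to 17.8% of its span covered.

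Dnajb13, a gene of motile cilia and sperm tails, was the only member that led in lung under the 2-fold rule. It was covered over 24.6% in heart and 32.8% in kidney, 10.9% in liver and 82.7% in lung, with 8.94 (7.31 to 10.8), 6.14, 1.72 and 28.9 (26.3 to 31.7) tags per kb. The longest overlap was with regions that also met Ucp2, a mitochondrial carrier gene, in heart (17.9 kb), kidney (14.5 kb) and lung (18.4 kb), so these values cannot be assigned to Dnajb13 alone. The first 2 kb of Dnajb13 were covered over 85.85% in lung and 0% in the other lists. Dnajb3 and Dnajb7, both known from testis, were each covered over 100% in kidney and liver. In heart both were at 0%, and in lung Dnajb3 was at 0% and Dnajb7 at 18.5%. Dnajb3 lay inside a region over the Ugt1a genes for glucuronidation enzymes (18.5 kb in kidney and 98.2 kb in liver), and Dnajb7 in regions over St13 and Xpnpep3.

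Class C, the largest class, had 8 of 28 genes covered in heart and 10 in kidney, 11 in liver and 5 in lung, beside 16.1%, 21.1%, 21.9% and 15.1% of all genes. The lung count is near the background. Another 13 of the 28 were covered in no list. Dnajc4, Dnajc5 and Dnajc7 were covered in all 4. Dnajc4 was at 100% throughout, inside gene-dense regions of 31.6 to 40.1 kb. Dnajc5, which encodes the cysteine string protein of secretory vesicles, was covered over 60.9% in heart and 77.8% in kidney, 76.1% in liver and 54.5% in lung. Dnajc7, an HSP70 and HSP90 co-chaperone gene, was covered over 58.3%, 56.4%, 94.4% and 60.4%.

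Kidney led for Dnajc12 and Dnajc13. Dnajc12, the co-chaperone of aromatic amino acid hydroxylases such as phenylalanine hydroxylase, was covered over 6.56% in heart and 72.0% in kidney, 37.6% in liver and 16.4% in lung. Its tags per kb were 1.25 (0.857 to 1.76), 16.2 (15.1 to 17.5), 6.89 (6.20 to 7.63) and 3.04 (2.49 to 3.67), kidney being 2.36 times liver. Dnajc13, a gene of endosomal sorting, was covered over 1.78%, 54.5%, 32.0% and 2.19%, with 0.323, 12.9, 5.57 and 0.396 tags per kb and a kidney to liver ratio of 2.31. Dnajc22 was covered over 100% in kidney and liver and 0% in heart and lung, with 20.6 and 22 tags per kb where called.

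Genes of mitochondrial function in class C differed among themselves. Dnajc19, a subunit of the protein import motor, was covered over 25.8% in heart and 57.6% in kidney, 79.2% in liver and 18.5% in lung, whereas Dnajc15, its paralog, had 2.69% to 6.75% of its span covered. Dnajc30, a mitochondrial protein gene of 1160 bp, was covered over 100% in heart, kidney and liver and 0% in lung. Dnajc11, of the inner membrane organising complex, had 8.99% to 42.5% covered. Dnajc14 and Dnajc28 were covered in 3 lists, Dnajc18 in 2 and Dnajc8, a gene of pre-mRNA splicing, in 1. Dnajc9, a histone chaperone gene, had 33.4% to 48.2% of its span covered, and Dnajc17 had 9.13% to 22.1%. The remaining class C genes, with low coverage in every list, were Dnajc1, Dnajc2, Dnajc5b, Dnajc5g, Dnajc6, Dnajc10, Dnajc21, Dnajc24 and Dnajc27, of which Dnajc5b reached the highest value, 15.5% in lung.

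In a group of 10 genes for chaperones of the ER, more were covered in liver than in the other lists. Of 10 members that encode ER HSP70 and HSP90 proteins or numbered ER DnaJ proteins, 3 were covered in heart and 2 in kidney, 7 in liver and 2 in lung, beside 16.1%, 21.1%, 21.9% and 15.1% of all genes. The kidney and lung counts are near the background. This group too was drawn up with the values known. It leaves out Dnajb12, placed above at the ER membrane and covered in all 4 lists. Not every member of the group was highest in liver: Dnajc1 had 7.39% of its span in regions in lung and 5.55% in liver. The median of the group was 2.92 tags per kb in heart and 2.77 in kidney, 22.9 in liver and 3.38 in lung. Of the 8 genes that led in liver under the 2-fold rule, 6 were in this group: Hsp90b1, Dnajb9, Dnajb11, Dnajc3, Dnajc16 and Dnajc25. The other 2 were Dnaja3 and Hsf2. All hepatocyte markers were covered in liver and 0 of 5 in the other lists, and their part in these values was not tested.

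Dnajb11, the ER DnaJ protein that works with BiP on secreted proteins, differed most. It was covered over 0% in heart and 4.71% in kidney, 100% in liver and 3.88% in lung. Its tags per kb were 60.7 in liver (58.4 to 63.1), 1.02 in kidney (0.714 to 1.40) and 0.777 in lung (0.490 to 1.17), with no region over it in heart, and liver stood at 59.8 times kidney. The liver region was 79.5 kb long with 4825.5 tags per 10000000, and it also held Tbccd1, Ahsg and Fetub. Ahsg and Fetub encode fetuins, plasma proteins made by hepatocytes, so Pol II of Dnajb11 and of these neighbours cannot be told apart in liver.

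Dnajc3, which encodes the ER protein p58IPK and has the ER stress element shown above, was covered over 7.81% in heart and 15.3% in kidney, 84.9% in liver and 22.8% in lung. It had 1.73 (1.36 to 2.16), 2.72 (2.36 to 3.13), 21.0 (20.02 to 22) and 4.25 (3.73 to 4.81) tags per kb, liver being 4.94 times lung. Its longest liver region, of 22.9 kb, met no other protein-coding gene. The first 2 kb of Dnajc3 were covered over 79% or more in all 4 lists and the middle 2 kb over 100% in liver and 0% in the others. In covered percent, the difference thus lay mainly in the gene body, as for Hsph1 in kidney. The longest regions in liver, heart and lung, which held the start, had 32.6, 20.9 and 20.3 tags per kb. The liver one ran on into the body, and tag density at the start itself was not tested.

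Dnajb9, the unfolded protein response target ERdj4, was covered over 28.9% in heart and 48.4% in kidney, 100% in liver and 35.4% in lung, with a liver to kidney ratio of 2.17 in tags per kb. Dnajc25 was covered over 15.5%, 14.5%, 67.9% and 13.2%, with 14.3 tags per kb in liver, 3.48 times heart. Dnajc16 was covered over 50.9%, 49.9%, 84.1% and 33.6%, with a ratio of 2.08, and its liver region of 101 kb also held Ddi2, Rsc1a1 and Agmat. Among the ER genes with the ER stress element, Hspa5 was the one that did not lead in liver, since it was at 41.6 tags per kb in heart and 43.1 in liver. The genes of the ER group covered in no list were Dnajc1, Dnajc10, which encodes a disulfide reductase, and Hspa13, with 0% to 13.1% of their spans in regions.

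The 2 heat shock factor genes had different patterns. Hsf1, the master regulator of the heat shock response, was covered over 33.3% in heart and 18.3% in kidney, 12.7% in liver and 33.6% in lung, with 7.26, 3.09, 1.91 and 5.58 tags per kb. Hsf2 was covered over 6.21% in heart and 22.6% in kidney, 80.4% in liver and 6.81% in lung. It had 1.79 (1.34 to 2.35), 3.95 (3.42 to 4.55), 23.6 (22.4 to 24.9) and 1.28 (0.950 to 1.69) tags per kb, so liver stood at 5.98 times kidney. The first 2 kb of the Hsf2 span were not covered in liver. The span begins 2.62 kb before the start that the promoter table gives (chr10:57486385). The longest liver region, of 17.0 kb, contains that start and met no other protein-coding gene.

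Pol II coverage along the longer genes was highest at their start. Among 40 members of 10 kb or more with a known strand, the first 2 kb were covered over at least 50% in 22 in heart and 25 in kidney, 28 in liver and 26 in lung, beside 34.6%, 45.8%, 44.7% and 38.4% of 11080 genes. The middle 2 kb were covered to this extent in 11, 9, 15 and 7, beside 12.1%, 16%, 18.2% and 10.6%. For the last 2 kb the counts were 11, 9, 18 and 8, beside 13.5%, 19.1%, 21.1% and 12.6%. At the first window the share of members (55% to 70%) was above that of all genes in each list, while at the last window in kidney (22.5%) it was close to it. Coverage of the first window only was found for 10, 14, 11 and 15 members, beside 20.3%, 25%, 22.4% and 24.4%. For 5 of the 40 the span and the promoter table place the start more than 1 kb apart, Hsf2 among them.

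**Figure D4:**
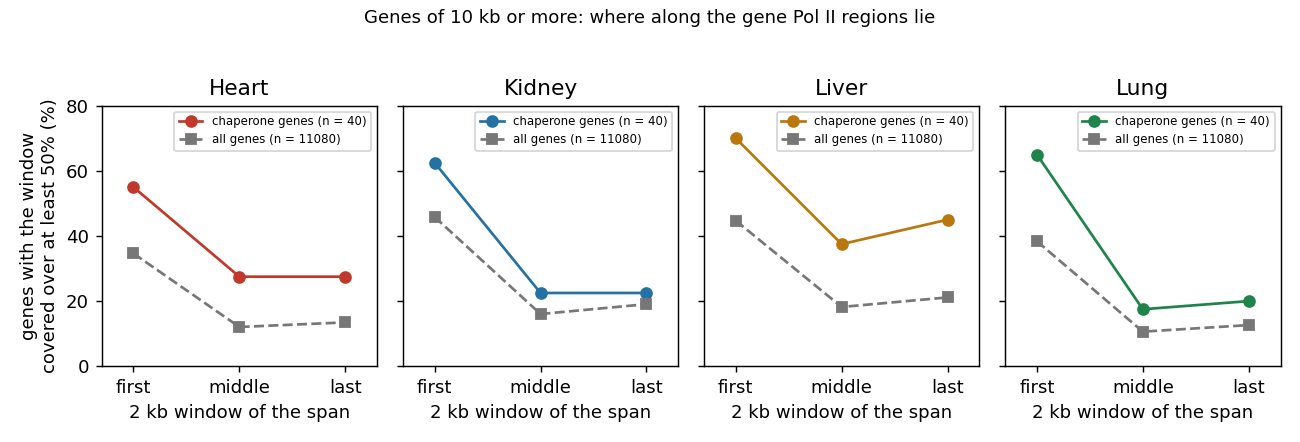
Percent of genes of 10 kb or more whose first, middle or last 2 kb window (horizontal axis) was covered over at least 50% in each organ's list, for 40 chaperone genes (coloured circles) and 11080 protein-coding genes (grey squares). Chaperone genes go from 70% at the first window to 37.5% at the middle one in liver, and from 65% to 17.5% in lung.

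Long regions that run across several genes bear on part of these values. The region that held most of a covered chaperone gene also met another protein-coding gene for 16 of 35 covered members in heart and 19 of 34 in kidney, 25 of 36 in liver and 10 of 27 in lung. The median length of these regions was 11.9, 15.8, 19.1 and 8.39 kb. These regions were longest in liver by the median and most often shared there. The matching share among all covered genes was not counted. Over the whole lists, too, the median region was longest in liver, at 951 bp, beside 730 bp in heart, 783 bp in kidney and 696 bp in lung. Among the genes with no other gene within 2 kb, 4 led in heart (Bag3, Dnajb5, Hspb3 and Hspb7), 3 in kidney (Dnajc12, Dnajc13 and Hsph1), 5 in liver (Dnaja3, Dnajb9, Dnajc16, Dnajc25 and Hsf2) and 1 in lung (Dnajb13).

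**Figure D5:**
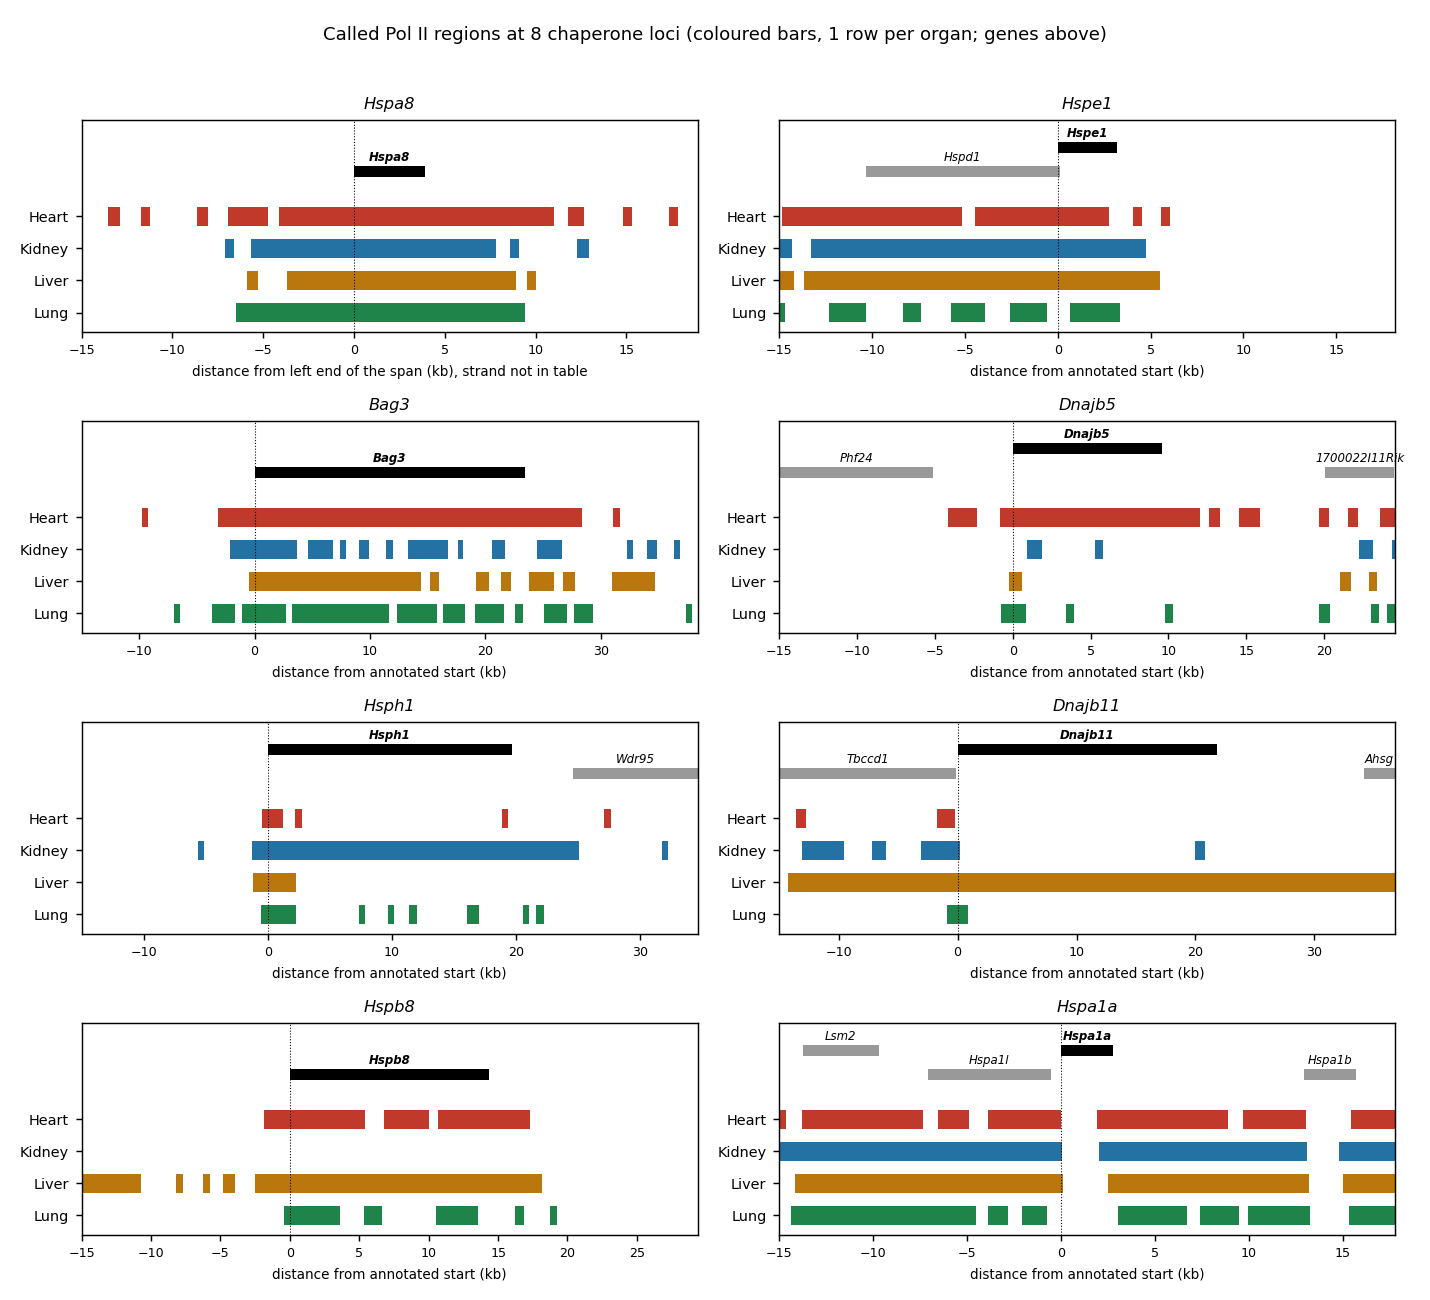
Called regions (coloured bars, 1 line per organ) around 8 chaperone loci, by distance in kb from the annotated start of the named gene (black), or from the left end of the span for Hspa8, whose strand was not in the table, with other protein-coding genes in grey. Regions extend over the whole of Hspa8 in all 4 lists, over Dnajb5 in full in heart, over Hsph1 in full in kidney, and across Dnajb11 and its neighbours in liver.

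Which list was highest also depended on how tags were counted. By tags per kb of span, 27 of the 76 members with any region were highest in heart and 14 in kidney, 28 in liver and 7 in lung, where all genes with a region were highest in these lists in 26.7%, 25.1%, 31.2% and 17.0% of cases. When tags were divided by the covered length in place of the whole span, 5 genes led in heart (Bag3, Dnajb5, Hspa12b, Hspb3 and Hspb7), 1 in liver (Dnajb11) and 0 in kidney and lung. The 7 other liver genes did not reach 2 times the density of each other list within covered parts. For Hsf2 that density was 29.4 tags per kb in liver and 28.9 in heart, with 80.4% and 6.21% of the span covered. For Hsp90b1 it was 40.6 in liver and 21.5 in kidney, with 100% and 79.2% covered, so density differed there as well as coverage. When tags were scaled to those inside regions, liver was led by 5 genes (Dnaja3, Dnajb11, Dnajc25, Dnajc3 and Hsf2), and Hsp90b1, Dnajb9 and Dnajc16 no longer reached the 2-fold rule. In heart the same scaling left out Hspa12b and Dnaja4 and added Dnajb2. Scaling to the median tags per kb of each list's regions instead gave 9 liver genes, the 8 of the main count and Dnaja2. It gave 5 in heart, without Dnaja4.

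Genes that work with these families were taken from 3 lists. Of 24 cytosolic co-chaperone and related genes, 13 were covered in heart and 15 in kidney, 13 in liver and 11 in lung, beside 16.1%, 21.1%, 21.9% and 15.1% of all genes, the shares against which the other lists are also to be read. Bag5, the HSP70 and HSP90 ubiquitin ligase gene Stub1 and the immunophilin gene Fkbp4 were at 100% in all 4 lists. Unc45b, a myosin chaperone of striated muscle, was covered over 79.0% in heart and 0% to 3.1% elsewhere. Of 18 genes of ER folding and the unfolded protein response, 8 were covered in heart and 12 in kidney, 13 in liver and 10 in lung, with the lectin chaperone Calr and the transcription factors Xbp1 and Atf4 at 100% in every list. Ern1, the stress sensor IRE1, was covered over 100% in liver and 8.5% to 42.5% elsewhere, and the collagen chaperone Serpinh1 over 93.6% in heart and 66.0% in kidney, 0% in liver and 76.8% in lung. Of 18 genes of the cytosolic chaperonin CCT and of mitochondrial folding, 8, 12, 11 and 7 were covered, with lung lowest, as it also was among all genes. Members of this list differed in which organ was highest. The CCT subunit gene Cct2 was covered over 78.5% in heart and 25.9% in kidney, 24.5% in liver and 29.4% in lung. Another subunit gene, Cct8, was covered over 31.0% in heart and 54.9% in kidney, 100% in liver and 13.0% in lung.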

How the data were processed

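Pol II occupancy was measured in 4 organs, with 1 deposited region list each. The submitters' processing notes name Bowtie2 2.2.8, HOMER 4.8 and the build mm10. Per the file headers, the caller was findPeaks in its histone style, with 500 bp windows, a Poisson p threshold of 0.001, a fragment length of 78 bp, at most 1 tag per bp and a genome size of 2 Gb, and the recorded command names no control library. As deposited, a region's signal is its tag count, scaled by the authors to a total of 10000000 tags. The deposited score comes from the caller and was used only within a list, and the deposited ratio (clonal fold change) was not used. Region lengths were taken from the deposited coordinates. The lowest deposited count was 6.07 tags in heart and 5.42 in kidney, 5.23 in liver and 5.64 in lung. Depth was lowest in heart, and its effect on the calling of weakly occupied genes was not tested. The handling of tags with several matching places was not given in the sources used here.

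Gene spans and promoters came from RefSeq tables of GRCm38.p6. The members follow from their symbols alone. That rule, the gene groups and the lists were nevertheless chosen with earlier results of these data known. The 4-list values are printed for 46 members: those covered in every list, leading in an organ, differing by at least 50 points between lists, or with no region near an end. Other members are given by range or count, and a few of them by name, chosen after their values were seen. Alternatives changed the regions used, the thresholds, the gene-end window, the scaling and the treatment of neighbours. Measures were computed with Python 3.11.15, pandas 2.3.3 and scipy 1.17.1, and the interval code was tested on simulated data, where 100% of 2000 genes equalled per-base counts. With 1 list per organ no test was made. Some neighbouring genes are not reported here.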

Additional observations from a re-analysis of the deposited data

How the results depend on the processing

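No paired analysis was possible because each organ has 1 list. Of 151 alternative counts, 118 stayed within 1.5 times the reported one and 33 did not, and the cause was not tested beyond what each alternative's construction shows. With only the 50% of regions of highest score, 20 members were covered in heart, 15 in kidney and 14 in lung, 42 had a region near an end in kidney, 3 led in heart and 1 in kidney, and 5 were covered in 3 lists and 3 in 4 lists. Restricting to the 37 members with no other gene within 2 kb, which leaves fewer genes, gave 15, 14, 15 and 12 covered in heart, kidney, liver and lung, 27, 32, 31 and 30 with a region near an end, 5 leading in liver, and 12, 5, 4 and 6 covered in 0, 2, 3 and 4 lists. When 75% of the span had to be covered, 17 were covered in lung, 1 led in kidney and 8 were covered in 4 lists. At 25%, 8 were covered in 1 list and 30 in 4 lists. Asking for regions at both ends left 45 in kidney. A 3-fold lead left 1 in kidney and 5 in liver. Tags per kb of covered span left 0 leading in kidney, 1 in liver and 0 in lung. Scaling to tags in regions, chosen after seeing the data, left 5 in liver. Scaling to median region density, also not planned, stayed within 1.5 times the reported count there, with 9. Of 184 values of named members, a minimum of 10 tags per region changed 1 call (Hspa9 in lung, to 44.8%). Reducing each list to 161 Mb changed 5: Dnajc13 (47.5%) and Bag3 (35.4%) in kidney, and Dnajc19 (48.3%), Dnajc5 (41.0%) and Hsp90aa1 (40.3%) in liver. Depth runs from 9880184 tags in heart to 20058183 in liver, and how far depth set the differences between organs was not tested.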
